A study of Rattus norvegicus with 12 samples.

Results

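The activator protein 1 (AP-1) genes Fos, Fosb, Fosl1, Fosl2, Jun, Junb, Jund and Atf3 were examined in rat hippocampus. The 8 genes were taken by symbol, and each had 1 row among the 23760 genes measured. All 8 passed the filter on low values that left 19050 genes for testing. The samples were 6 labelled AS3h and 6 labelled NC. Neither abbreviation is expanded in the labels, which give no treatment, exposure time, strain, age or sex for either group. The series title concerns cognitive impairment after prolonged work under water and a knockdown of Ccr3, and none of the 12 samples is labelled as a knockdown. The labels do not state whether each sample is a different animal, and p-values therefore reflect variation among these 12 libraries, which may be technical.

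AP-1 is a family of transcription factors that act as dimers of basic leucine zipper proteins. FOS proteins mostly pair with a JUN partner and not with each other, whereas JUN proteins also pair among themselves, and ATF3 joins JUN proteins or itself. In hippocampal neurons Fos, Fosb and Junb are immediate early genes, transcribed soon after synaptic activity or stress without new protein synthesis, and Fos RNA is widely used as a marker of recent activity. Jund is expressed more steadily, and Jun and Atf3 are known for their response to cellular stress and axonal injury.

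Of the 8 genes, 4 rose in AS3h hippocampus: Fosb, Fos, Fosl1 and Junb. None fell, and Fosl2, Jun, Jund and Atf3 did not pass (limma on log2 values, Benjamini-Hochberg adjusted p under 0.05 over all 19050 genes). Across all genes tested 5.04% were higher, 4.22% were lower and 9.26% changed in either direction. In the same 4 genes all 6 AS3h libraries lay above all 6 NC libraries, which was so for 3.01% of all genes tested. The median log2 fold change of the 8 was 0.75, against -0.00428 over all genes tested. This median lies between Junb (0.73) and Atf3 (0.76), and the Atf3 value rests on few reads.

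Values below are normalised read counts, that is reads divided by the authors' factor for each library, and are not divided by gene length, so levels are compared between groups and not between genes. Fold changes (AS3h over NC) are on the log2(value + 1) scale with their standard error, and adjusted p-values are from limma. Libraries held 29615243 to 36947557 reads on genes in AS3h and 30128112 to 38106489 in NC, where 3 reads equal 0.0812 to 0.101 CPM in AS3h and 0.0787 to 0.0996 CPM in NC. All 8 neuronal markers, among them Prox1 of dentate granule cells and Rbfox3, had reads in all 12 libraries. Of them Slc17a7, the vesicular glutamate transporter gene of excitatory neurons, passed as higher (log2 fold change 0.27 ± 0.072, adjusted p = 0.0318), with 5 of 6 AS3h libraries above all NC libraries. Choroid plexus markers summed to 380.3 to 71091 in AS3h libraries and 239 to 1322 in NC libraries, with AS3h 5 and AS3h 4 the highest at 71091 and 7740.05. Their defining gene Ttr had reads in every library, while Otx2 was at 0 in 7 libraries and Sostdc1 and Prlr each in 5. Blood markers summed to 12988 to 39452 in AS3h and 9842 to 23668 in NC, with AS3h 2 the highest. None of the 11 choroid plexus or 10 blood markers tested passed in either direction, where 9.26% of all genes tested did. Among the blood markers the T cell gene Cd3e had a negative log2 fold change (-1.33) and the others tested had positive ones. Markers of endothelium summed to 3593 to 4217 in AS3h and 4935 to 6871 in NC, without overlap, although Cldn5 was at 0 in 6 libraries. Of the 5 tested, 2 passed as lower, Slco1a4 and Flt1 (log2 fold changes -0.97 and -0.27), where 4.22% of all genes tested did. Slco1a4 had means of 1341 in AS3h and 2631 in NC, a large part of the difference between the sums. Cdh5 and Tek had positive log2 fold changes (0.27 and 0.091) and did not pass, nor did Cldn5. The markers of this list therefore did not share a direction. Of 6 microglial markers only Cx3cr1 passed, as lower (adjusted p = 0.00883), with sums of 6568 to 7907 in AS3h and 7082 to 8713 in NC. Over all genes tested 5.04% were higher and 4.22% lower, and a difference of the marker lists from these shares was not tested. The part of excitatory neurons, endothelium and microglia in the AP-1 values was not tested.

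Fosb, which encodes FOSB and by alternative splicing the long-lived short form known as delta-FosB, showed the largest change of the 8. In AS3h its lowest, median and highest normalised counts were 370.5, 469 and 532, against 103, 160.3 and 209 in NC. The lowest AS3h library, AS3h 3, stood above the highest NC library, NC 4. Means were 458 ± 61.7 in AS3h and 159 ± 34.4 in NC (SD, n = 6 each), a 2.91-fold difference with a 95% interval of 2.35 to 3.60 (log2 fold change 1.54 ± 0.14, adjusted p = 5.09e-05). It ranked 7 among all genes tested by p-value and 113 by fold change. A count per gene does not separate the 2 spliced forms.

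Fos, the founding member and the usual activity marker, had 240.1, 305 and 409 normalised counts as the lowest, median and highest values in AS3h and 98.1, 136 and 165 in NC. The groups did not overlap. AS3h 1 and AS3h 2 were the highest, at 407 and 409, and AS3h 3, 5 and 6 lay between 240.1 and 257. Means were 320.03 ± 78.9 in AS3h and 135 ± 26.7 in NC (SD, n = 6 each), a 2.33-fold difference (log2 fold change 1.22 ± 0.17, 95% interval 0.86 to 1.58, adjusted p = 0.000587).

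Fosl1, which encodes FRA-1, a FOS protein without the strong activation domain of FOS, also rose. Its values in AS3h were 199.6, 266 and 339.7 (lowest, median, highest), against 119 in the lowest, 142 in the median and 174 in the highest NC library. No AS3h library overlapped NC, although AS3h 2, which was among the highest for Fos, was the lowest for Fosl1. Means were 262 ± 51.2 in AS3h and 147 ± 21.4 in NC (SD, n = 6 each), a 1.77-fold difference with a 95% interval of 1.44 to 2.17 (log2 fold change 0.82 ± 0.14, adjusted p = 0.00237).

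Fosl2, which encodes FRA-2, was the FOS gene that did not pass. It had 57.6, 90.0 and 112 normalised counts in AS3h and 69.3, 75.3 and 77.7 in NC. AS3h 3, 4, 6 and 2 lay above every NC library, AS3h 5 lay below them all, and AS3h 1 fell among them. The log2 fold change was 0.20 ± 0.16 (adjusted p = 0.469), with a 95% interval from -0.14 to 0.55. The SD was 20.9 in AS3h and 3.46 in NC, where counting error alone would give about 9.29 and 8.25. The difference in spread was not tested.

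**Figure D1:**
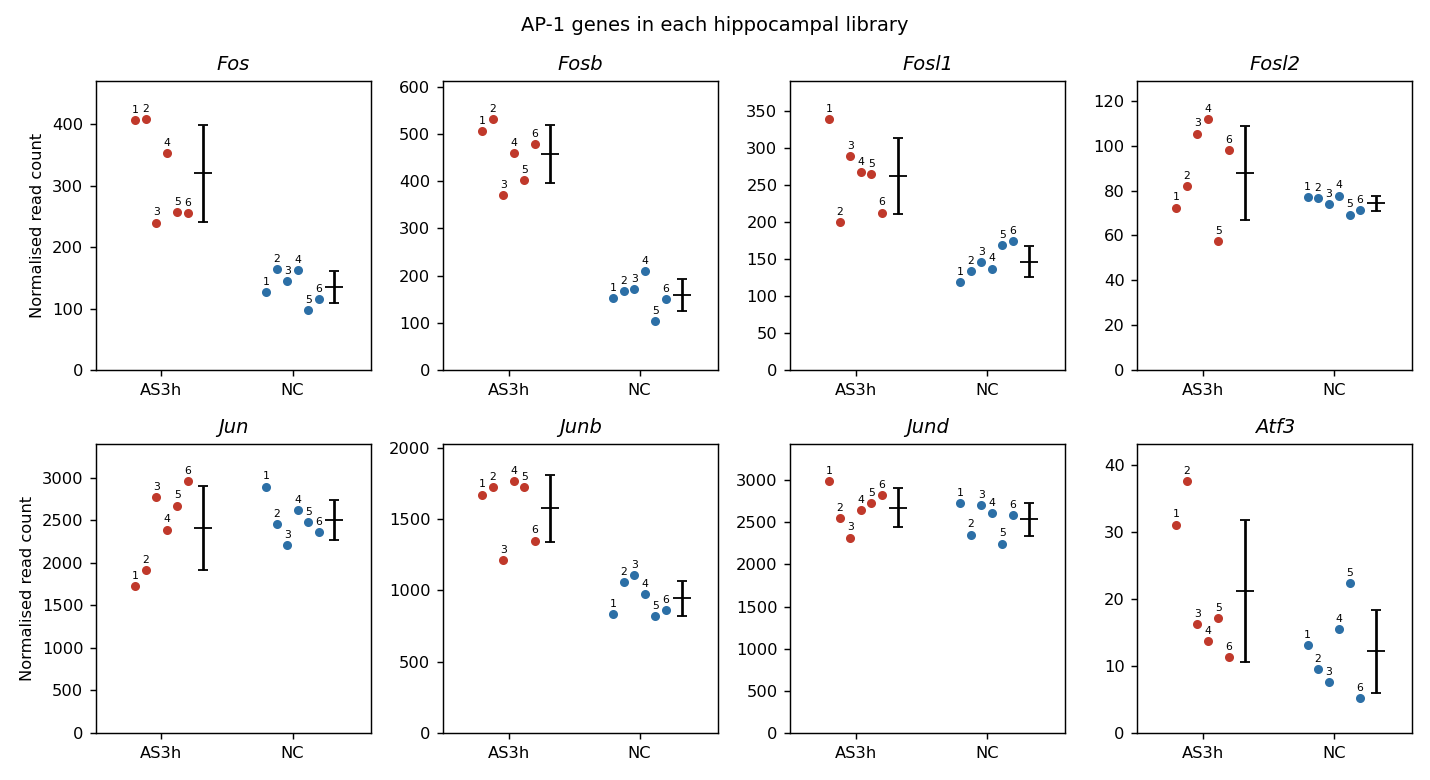
Normalised read counts of the 8 AP-1 genes, with 1 point per library labelled by its replicate number, AS3h on the left and NC on the right of each panel. Black bars are the mean and SD of 6 libraries, each axis starts at 0, and the AS3h points of Fos, Fosb, Fosl1 and Junb all lie above the NC points.

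Among the JUN genes, which supply the usual partner of FOS proteins, Junb rose and Jun and Jund did not pass. JUNB is a weaker activator than JUN and competes with it for dimer partners. Junb had 1212, 1699 and 1765 normalised counts as the lowest, median and highest AS3h values and 819, 919 and 1109 in NC. AS3h 3 and AS3h 6, at 1212 and 1349, were the lowest AS3h libraries and still lay above NC. Means were 1575 ± 234 in AS3h and 943 ± 123 in NC (SD, n = 6 each), a 1.66-fold difference with a 95% interval of 1.42 to 1.94 (log2 fold change 0.73 ± 0.11, adjusted p = 0.000758).

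Jun, the founding JUN gene and a target of the JNK kinases at the protein level, had 1728, 2531 and 2955 normalised counts in AS3h and 2208, 2468 and 2895 in NC. AS3h 1 and AS3h 2, at 1728 and 1914, lay below every NC library, AS3h 6 lay above them all, and the other 3 AS3h libraries fell among them. The log2 fold change was -0.08 ± 0.12 (adjusted p = 0.731), with a 95% interval of 0.793 to 1.13 on the fold scale. Jund, whose product is often described as a brake on growth, had 2316, 2683 and 2984 in AS3h and 2245, 2595 and 2723 in NC, and the groups overlapped. Its log2 fold change was 0.07 ± 0.066 (adjusted p = 0.528), with a 95% interval of 0.955 to 1.16 on the fold scale.

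Promoter sequence is shown for Junb and Jund, of which the first rose and the second did not pass. The bases come from the RefSeq promoter table of build GRCr8, which had 5 of the 8 genes (Fosb, Fosl1, Fosl2, Junb and Jund) and not Fos, Jun or Atf3, and they cover the 250 bases before the annotated start, 5′ to 3′. Junb lies at chr19:40080876-40081125 on the plus strand and Jund at chr16:18769772-18770021 on the minus strand. Capitals mark the cyclic AMP response element (CRE) TGACGTCA, its half-site TGACG or CGTCA, and the TATA box TATAAA.
Junb: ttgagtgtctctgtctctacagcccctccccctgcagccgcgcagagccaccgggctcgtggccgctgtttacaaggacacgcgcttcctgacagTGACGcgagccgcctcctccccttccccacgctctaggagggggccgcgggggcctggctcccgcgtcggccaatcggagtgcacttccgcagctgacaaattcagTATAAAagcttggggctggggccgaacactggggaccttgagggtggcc
Jund: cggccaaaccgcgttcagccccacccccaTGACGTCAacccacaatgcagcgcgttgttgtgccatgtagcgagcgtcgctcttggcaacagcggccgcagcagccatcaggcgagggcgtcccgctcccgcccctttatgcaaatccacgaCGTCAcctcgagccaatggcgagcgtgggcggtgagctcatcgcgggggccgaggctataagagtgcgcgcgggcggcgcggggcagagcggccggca
In Jund a whole CRE began 221 bases before the start, with a separate half-site at 98 to 94 bases. Junb had no whole CRE, 1 half-site at 155 to 151 bases and a TATA box at 49 to 44 bases. Fosl1, which rose, had 2 half-sites, at 148 to 144 and 84 to 80 bases, and Fosb and Fosl2 had none of the motifs searched. Neither the AP-1 site (TGACTCA or TGAGTCA) nor the CArG box bound by serum response factor matched in any of the 5 windows. Of 33469 promoter windows of this length, 1.59% held a CRE, 18.2% a half-site (whole CREs included), 4.05% an AP-1 site and 8.06% a TATA box, and 501 held a CArG box. Both strands were searched except for the TATA box, for which only the gene's strand was. These matches describe letters in 1 window of another build than the one named for the reads, and no binding was measured.

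Atf3, which encodes a stress-induced partner of JUN proteins and is known as a mark of injured neurons, had few reads. AS3h libraries held 13 to 39 reads and NC libraries 6 to 21. Normalised counts were 11.4, 16.7 and 37.6 in AS3h and 5.15, 11.3 and 22.4 in NC. AS3h 1 and AS3h 2, at 31.2 and 37.6, lay above every NC library, and the other 4 overlapped NC. The log2 fold change was 0.76 ± 0.37 (adjusted p = 0.218), and its 95% interval ran from -0.027 to 1.55. It was 0.36 without AS3h 1 and AS3h 2 (adjusted p = 0.585), an omission chosen after the data were seen because these libraries lay farthest to one side on the first axis of all genes described below.

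**Figure D2:**
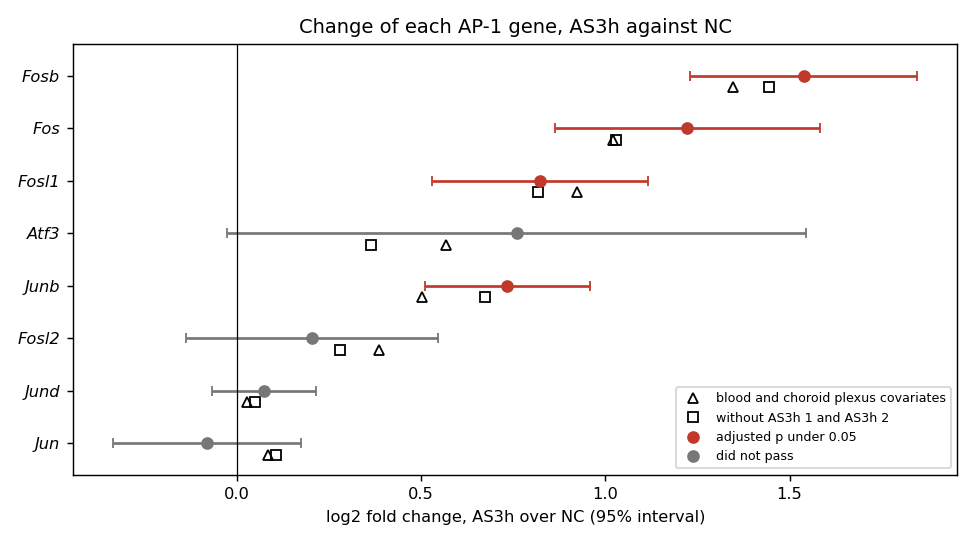
Log2 fold changes (AS3h over NC) of the 8 genes with 95% intervals from limma, in red where the adjusted p was under 0.05. Open triangles give the value with blood and choroid plexus marker levels as covariates and open squares the value without AS3h 1 and AS3h 2, where Jun moves from -0.08 to 0.09 and 0.11.

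Whether the genes changed by different amounts was tested on 6 ratios within each library, in which the library factor cancels apart from the added 1 (two-sided exact permutation test, 6 libraries against 6, adjusted over the 6 ratios). Fosb rose more than Fos. The log2 ratio of Fosb to Fos was 0.54 ± 0.23 in AS3h and 0.23 ± 0.15 in NC (SD, n = 6 each), a 1.24-fold shift (exact permutation p = 0.0152, adjusted p = 0.0227), although the ranges overlapped, at 0.31 to 0.91 in AS3h and 0.022 to 0.38 in NC. Fosl2 did not keep pace with Fos: their log2 ratio was -1.85 ± 0.53 in AS3h and -0.83 ± 0.24 in NC, and the ranges did not overlap (exact permutation p = 0.00216, the smallest this design can give, adjusted p = 0.00649).

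Between the families, Fos gained on Jun in every AS3h library. The log2 ratio of Fos to Jun was -2.92 ± 0.66 in AS3h and -4.22 ± 0.32 in NC, with all 6 AS3h libraries above NC, a 2.47-fold shift (exact permutation p = 0.00216, adjusted p = 0.00649). Within the JUN genes, the log2 ratio of Junb to Jun was -0.60 ± 0.48 in AS3h and -1.41 ± 0.28 in NC, a 1.76-fold shift (exact permutation p = 0.00866, adjusted p = 0.0173). The ratios of Jund to Jun and of Atf3 to Jun shifted by 0.15 and 0.84 on the log2 scale and did not pass (exact permutation, adjusted p = 0.394 and 0.135). Without AS3h 4 and AS3h 5 the Fosb to Fos and Junb to Jun ratios did not pass (adjusted p = 0.0714 each, shifts of 0.33 and 0.78), and without AS3h 1 and AS3h 2 the Junb to Jun ratio did not (0.57, adjusted p = 0.0571).

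Within AS3h the libraries with most Fos had least Jun. AS3h 1 and AS3h 2 combined the highest Fos and Atf3 with the lowest Jun, and AS3h 6, the highest for Jun, was the lowest for Atf3. Over the 6 AS3h libraries Fos and Jun had Pearson's r = -0.93 (exact permutation p = 0.00833, adjusted p = 0.272 over 56 correlations, 28 gene pairs in each group) and Spearman's rho = -0.89 (exact permutation p = 0.0333, adjusted p = 0.693). Without AS3h 1 and AS3h 2, the libraries farthest from the AS3h median of Fos, r was -0.87. In the 6 NC libraries the same pair had r = -0.017 and rho = -0.029 (exact permutation p = 0.979 and 1). For Jun and Atf3 in AS3h, r was -0.89 and rho -0.77 (exact permutation p = 0.0319 and 0.103, adjusted p = 0.358 and 0.693). Without AS3h 1 and AS3h 2, also the farthest from the AS3h median of Jun, r was -0.28. Leaving out extremes narrows the range, so r over the few libraries left cannot settle what either relation rests on. Fos and Fosb had r = 0.81 and rho = 0.83 in AS3h (exact permutation p = 0.0653 and 0.0583) and r = 0.90 and rho = 0.83 in NC (exact permutation p = 0.00972 and 0.0583, adjusted p = 0.272 and 0.693). None of the 56 correlations passed the adjustment, and the difference between groups was not tested.

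**Figure D3:**
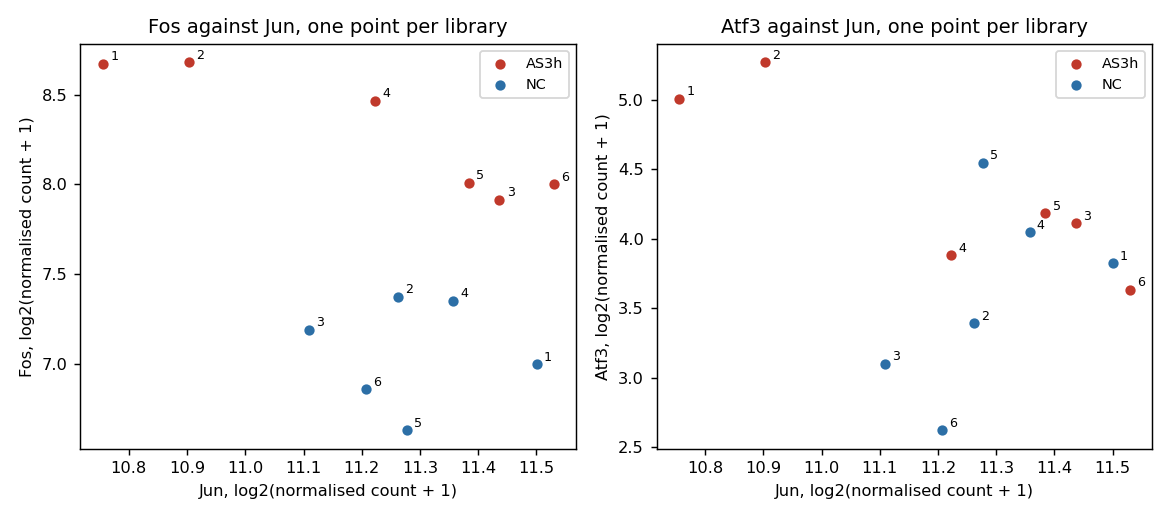
Fos (left) and Atf3 (right) against Jun in each library, all as log2(normalised count + 1), with replicate numbers beside the points, AS3h in red and NC in blue. AS3h 1 and AS3h 2 sit at the lowest Jun and the highest Fos and Atf3.

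The Jun pattern was shared with many other genes. The first principal axis of deviations from the group means, over 11713 named genes with a mean normalised count of at least 100, held 17.1% of their variance, with scores of 0.55 in AS3h 1 and 0.48 in AS3h 2 at one end and -0.47 in AS3h 3 at the other. The deviations of Jun had r = -0.91 with it over the 12 libraries, and those of Fos had r = 0.61. Jun correlated beyond 0.7 in either direction with 9.35% of these genes, against a median of 3.30% for a gene of this set, and Junb with 0.896%. By the same measure the 3 genes most like Jun were Ypel2 (r = 0.97), Ints5 of the Integrator complex (0.96) and the Hippo pathway kinase gene Stk4 (0.95). For Fos they were Cbx3 (0.91), Fabp3 (0.90) and Pfdn1 (0.88), and for Fosb Uqcrfs1 (0.93), Atp5sl (0.93) and Arl6ip4 (0.91). Fosl1 was followed most closely by Cdo1, Capzb and Flt3lg (0.89, 0.87 and 0.86), and Fosl2 by Epdr1, Acsl5 and Adcy3 (0.92, 0.90 and 0.90). Closest to Junb were Urod, Grpel1 and Sdhd (0.88, 0.87 and 0.84), and to Jund Pknox2, Coq2 and Bscl2 (0.92, 0.90 and 0.89). Cnot7 and Son were among the 3 closest to Atf3 (0.87 and 0.86). Of the genes named here for their likeness, Ints5 rose (log2 fold change 0.29 ± 0.083, adjusted p = 0.0413), Fabp3 and Pknox2 fell (-0.35 ± 0.094 and -0.43 ± 0.078, adjusted p = 0.0319 and 0.00381), and the others did not pass. These r values are the highest of 11713 and describe these libraries, and the part of the axis in the Fos, Jun and Atf3 values was not tested.

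Of the other basic leucine zipper genes whose products pair with FOS or JUN proteins, 5 of 7 were tested. None passed in either direction, where 9.26% of all genes tested did, and their median log2 fold change was -0.11. The smallest p belonged to Atf7 (-0.27 ± 0.11, adjusted p = 0.12), with means of 264 in AS3h and 317 in NC. Batf and Batf2, best known from lymphoid and myeloid cells, did not reach the filter and were not tested. They had 17 and 12 reads over the AS3h libraries and 2 and 0 over the NC libraries. Batf was at 0 in 8 libraries and Batf2 in 11, so all Batf2 reads came from a single AS3h library.

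Of 14 transcription factors and coactivators that act at the Fos promoter, 3 rose, none fell and 11 did not pass. Their median log2 fold change was 0.14. Over all genes tested 5.04% were higher and 4.22% lower, and a difference of the list from these shares was not tested. Stat3, a cytokine-activated factor that binds the sis-inducible element of the Fos promoter, had lowest and highest values of 1902.5 and 2381 in AS3h and 1536 and 1671 in NC (log2 fold change 0.43 ± 0.058, adjusted p = 0.000474). Atf1, a CREB relative, had 843 to 1149 in AS3h and 714 to 819 in NC, again without overlap (log2 fold change 0.35 ± 0.078, adjusted p = 0.0132). Crtc2, a CREB coactivator, had 1168 to 1356 in AS3h and 1008 to 1235.5 in NC (log2 fold change 0.21 ± 0.06, adjusted p = 0.0375). The Crtc2 call was lost in 9 of the 12 omissions of 1 library. Srf and Creb1, which encode the serum response factor and CREB and were picked after their values were seen, did not pass, at 0.22 and -0.37 on the log2 scale (adjusted p = 0.054 and 0.176).

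None of 18 genes for kinases upstream of FOS and JUN proteins passed, with a median of 0.07, where 9.26% of all genes tested did. The smallest p was for Rps6ka3, which encodes RSK2, a kinase that phosphorylates FOS and CREB (log2 fold change -0.18 ± 0.08, adjusted p = 0.182). Nor did any of 8 genes for FOS and JUN protein turnover pass, with a median of -0.067 and the smallest p for Usp28, a deubiquitinase gene (log2 fold change -0.15 ± 0.058, adjusted p = 0.129). These are RNA levels, and kinase activity and protein stability were not measured.

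Genes that have been reported as AP-1 targets were called in both directions. Among the 27 with a fit, 2 rose and 3 fell, 22 failed the threshold, and the median log2 fold change was 0.06. Over all genes tested 5.04% were higher and 4.22% lower, and whether the list differed from these shares was not tested. Ccnd1, which encodes the cell cycle regulator cyclin D1, fell by 0.68 on the log2 scale (adjusted p = 5.35e-05). Its values were 525, 584 and 675 in AS3h (lowest, median, highest) and 898, 946 and 1020.3 in NC, and the groups did not overlap. Nptx2, which encodes an activity-regulated pentraxin of excitatory synapses, rose, with 3222 to 3699 in AS3h and 2249 to 3537 in NC (log2 fold change 0.38 ± 0.082, adjusted p = 0.00973). Scg2, which encodes the neuropeptide precursor secretogranin II, fell, with means of 11036 in AS3h and 13657 in NC (log2 fold change -0.31 ± 0.071, adjusted p = 0.0146). Gria2, an AMPA receptor subunit gene, fell, with means of 36453 in AS3h and 44345 in NC (log2 fold change -0.29 ± 0.07, adjusted p = 0.0189). Srxn1, the sulfiredoxin gene, rose (log2 fold change 0.49 ± 0.13, adjusted p = 0.0241) and was named after its value was seen. It did not pass without NC 2 (adjusted p = 0.0593) or without AS3h 4 (adjusted p = 0.0606).

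**Figure D4:**
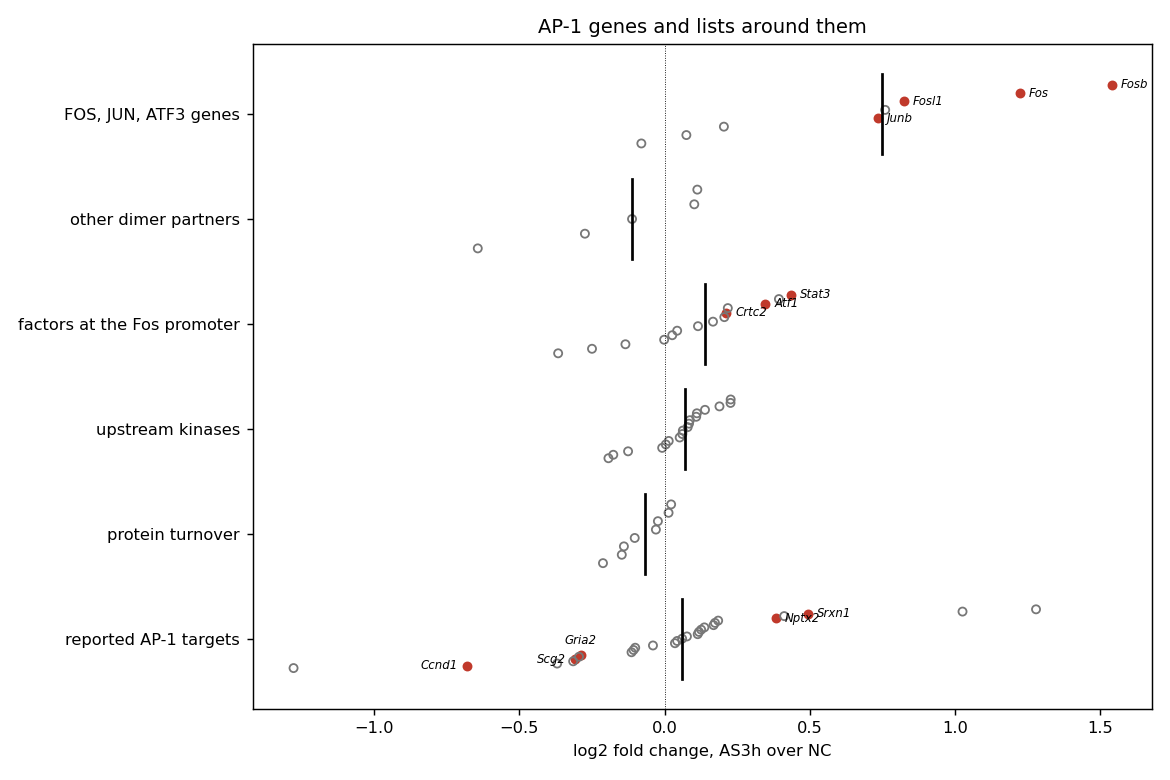
Log2 fold changes (AS3h over NC) of the AP-1 genes and of the tested genes in 5 lists around them, 1 point per gene. Filled red points had an adjusted p under 0.05, and black bars are list medians. Fosb at 1.54 and Fos at 1.22 lie to the right of every gene called in the other lists. The reported target Plau, named after its value was seen, lies at 1.28 and did not pass (limma, adjusted p = 0.0633).

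In a fit that also held a blood and a choroid plexus marker level per library as covariates, Fosb and Fosl1 still passed, at 1.35 and 0.92 on the log2 scale (adjusted p = 0.00713 and 0.0446). Fos and Junb did not, at 1.02 and 0.50 (adjusted p = 0.0523 and 0.0661), and 228 genes were called in all, against 1764 without covariates. The standard errors of Fos and Junb were 0.234 and 0.125, against 0.169 and 0.106 without covariates, where their log2 fold changes were 1.22 and 0.73. Stat3, Ccnd1 and Nptx2 passed with the covariates, and Atf1, Crtc2, Scg2, Gria2 and Srxn1 did not (adjusted p = 0.142 to 0.348). The log2 fold changes of these 5 were then 0.19, 0.16, -0.23, -0.20 and 0.56, and the standard error of Srxn1 was 0.185, against 0.125 without covariates. When AS3h 4 and AS3h 5, highest in choroid plexus markers, were left out, Fos, Fosb, Fosl1 and Junb all passed (log2 fold changes 1.25, 1.58, 0.80 and 0.65, adjusted p = 0.000498 to 0.0182). Crtc2, Nptx2, Scg2, Gria2 and Srxn1 did not pass in this smaller set (adjusted p = 0.0506 to 0.172). Their log2 fold changes there were 0.17, 0.37, -0.26, -0.24 and 0.46. In bulk tissue, a change in the number of cells of a type and a change in RNA per cell cannot be told apart.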

How the data were processed

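RNA was sequenced from 12 hippocampal samples, 6 per group, in strand-specific libraries, per the labels' protocols. FastQC 0.11.5, STAR and the build mRatBN7.2 appear in the submitters' processing notes, without roles. The sources used here do not give the counting program, the annotation or the strand setting, so overlapping genes can share reads. Each deposited log2 value is, judged from the values themselves, log2(1 + reads / factor), with the same factor for all genes of a library. Whole reads came back for 100% of values (within 0.02 read). Genes with a normalised value of at least 1 in at least 6 libraries were kept. limma 3.58.1 in R 4.3.3 was fitted with group only, a trend on mean level and a robust empirical Bayes step, with Benjamini-Hochberg adjustment at 0.05. Ratios used exact permutation tests in scipy 1.17.1, and correlations an exact permutation over all orders of the 6 libraries of a group. Figures used matplotlib 3.10.9.

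The genes, lists and alternatives were chosen with earlier results of these data known. Named genes were the 8 AP-1 genes, up to 4 genes past the threshold per list by smallest p (or the 1 with the smallest p where none passed) and the 3 genes most correlated with each AP-1 gene; exceptions are marked, and 1 gene of the rule is not reported here. List symbols without a row were matched by RefSeq synonyms. Mrtfb, Mmp3, the endothelial marker Pecam1 and the blood marker Hbb-b1 were not analysed here. Even the most similar replicates, AS3h 4 and AS3h 6, differed beyond sampling noise (chi-square over degrees of freedom 11.9), and all 12 libraries were counted. Alternatives were no filter or a mean of at least 10, a pseudocount of 0.1, limma-voom, 2 other library scalings, a replicate block, marker covariates, omission of each library, of AS3h 4 and 5 together and, chosen after seeing the data, of AS3h 1 and 2. Counting limits cover counting error only.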

Additional observations from a re-analysis of the deposited data

How the results depend on the processing

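Over 10 alternatives and 12 omissions of 1 library, Fosb and Fosl1 passed in all 22, and Fos and Junb in all but the covariate fit (1.02 and 0.50, adjusted p = 0.0523 and 0.0661), where 2 of the 8 genes were called. The Jun log2 fold change turned positive with the covariates (0.085), without AS3h 1 and AS3h 2 (0.11) and without AS3h 1 (0.00974), and ranged from -0.15 to 0.00974 over the omissions. The count of all genes called, 1764, was 1030 to 1788 over the omissions (lowest without NC 2, then 1109 without AS3h 4), 860 without AS3h 4 and AS3h 5 and 228 with the covariates. Of the genes at the Fos promoter, 5 were called with limma-voom and without AS3h 1 and AS3h 2, 1 with the covariates and 2 to 5 over the omissions (5 without AS3h 3). Of the reported targets, 2 were called without AS3h 4 and AS3h 5 and 2 with the covariates. Dimer partners and upstream kinases had 0 to 1 called over the omissions, the 1 without NC 5 for both and without AS3h 3 for the partners.

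By deviations over all genes tested, replicate numbers showed no pairing of the samples. Same-numbered libraries had r from -0.015 to 0.027, and none correlated best with its own number. Such a measure cannot exclude pairing, since it can miss a shared factor that touches few genes. With the number as a block 1296 genes were called, and the 4 ratios that passed without it did not (exact sign permutation over 6 pairs, adjusted p = 0.0625 to 0.0938): Fosb to Fos 0.32, Fosl2 to Fos -1.02, Junb to Jun 0.81 and Fos to Jun 1.30. All but Junb to Jun stood at the smallest p that 6 pairs allow (0.0312 before adjustment), so this test could hardly pass and says little about them. Without AS3h 4 and AS3h 5 the Fosb to Fos and Junb to Jun ratios were 0.33 and 0.78, and without AS3h 1 and AS3h 2 the Junb to Jun ratio was 0.57 and that of Jund to Jun -0.057. The cause of these changes was not tested. The interval of Atf3 reached 2.92-fold, and its SDs of 10.6 in AS3h and 6.23 in NC exceeded the counting SDs of 4.58 and 3.39.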
